A study of Homo sapiens with 16 samples.

Results

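Binding of p53 and CTCF was examined here at 8 genes of epithelial identity, adhesion and migration: SDC1, NDRG1, COL17A1, TP63, SERPINB5, EPS8L2, GASK1B (also called FAM198B) and EFNB1. They are genes whose transcripts the study measured by PCR, and its primer list gives NDRG1 only as NDRG. All peaks within 100 kb of either end of these gene bodies were taken from the peak lists, which gave 102 of 76863 peaks, 13 of them for p53 and 89 for CTCF. The study describes the genes of its PCR figure as having less transcript after H-RAS transformation and a p53 motif in chromatin regions that lost accessibility. That figure shows their response to p53 activation in MCF10A. The choice thus already drew on p53 sequence and on expression in these cells. Peak lists hold no transcript levels, so neither the epithelial character of the genes nor their expression could be checked.

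Chromatin immunoprecipitation with sequencing (ChIP-seq) had been done in parental MCF10A cells, a non-tumorigenic line of human mammary epithelium, and in MCF10A carrying a lentiviral H-RAS Gv12 oncogene, called G12V cells here, which were selected with hygromycin. Of the 16 samples, 8 were ChIP libraries with a peak list each, 2 replicates per factor and cell type, and 8 were inputs. Cells of both types were treated with nutlin, an inhibitor of MDM2 that stabilises p53, before fixation for the p53 libraries and not for the CTCF libraries. The study calls the replicates biological, but what the 2 of a group shared is not stated, and every p-value measures only the spread between these libraries.

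p53 is a transcription factor that binds as a tetramer to paired decamer repeats and regulates arrest, repair and death genes under stress. CTCF is a zinc-finger protein that sits at insulators and at the anchors of chromatin loops, where the direction of its motif matters. Among the genes, TP63 encodes a relative of p53 that governs basal epithelial cells and SERPINB5 encodes maspin, a serpin of epithelial cells. COL17A1 encodes the collagen of hemidesmosomes, SDC1 the heparan sulfate proteoglycan syndecan-1, and EFNB1 the membrane ligand ephrin-B1 of EphB receptors. EPS8L2 encodes a relative of the actin regulator EPS8, and NDRG1 a stress-responsive protein linked to differentiation.

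The DNA under the 3 p53 sites that had a peak in both replicates of a cell type is given 5′ to 3′ on the plus strand of GRCh37. Capitals mark the best p53 motif (a pair of adjacent decamers with the core C and G of each kept and at most 3 mismatches) at GASK1B and EPS8L2. At SERPINB5 no such pair was found within 150 bp around the summit, and capitals mark the 2 decamers with at most 1 mismatch. The first lies at chr18:61143949-61144098, the second at chr4:159092440-159092527 and the third at chr11:707010-707039.
SERPINB5 (peak in both G12V lists): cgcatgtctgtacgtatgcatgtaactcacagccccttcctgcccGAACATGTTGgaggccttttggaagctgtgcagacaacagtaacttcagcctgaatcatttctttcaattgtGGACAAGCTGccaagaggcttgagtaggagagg
GASK1B (peak in both MCF10A lists): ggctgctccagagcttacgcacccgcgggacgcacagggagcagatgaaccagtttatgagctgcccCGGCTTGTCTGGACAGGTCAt
EPS8L2 (peak in all 4 lists): gggggAGGCAGGGCCGGGCATGCCCggacc

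**Figure D1:**
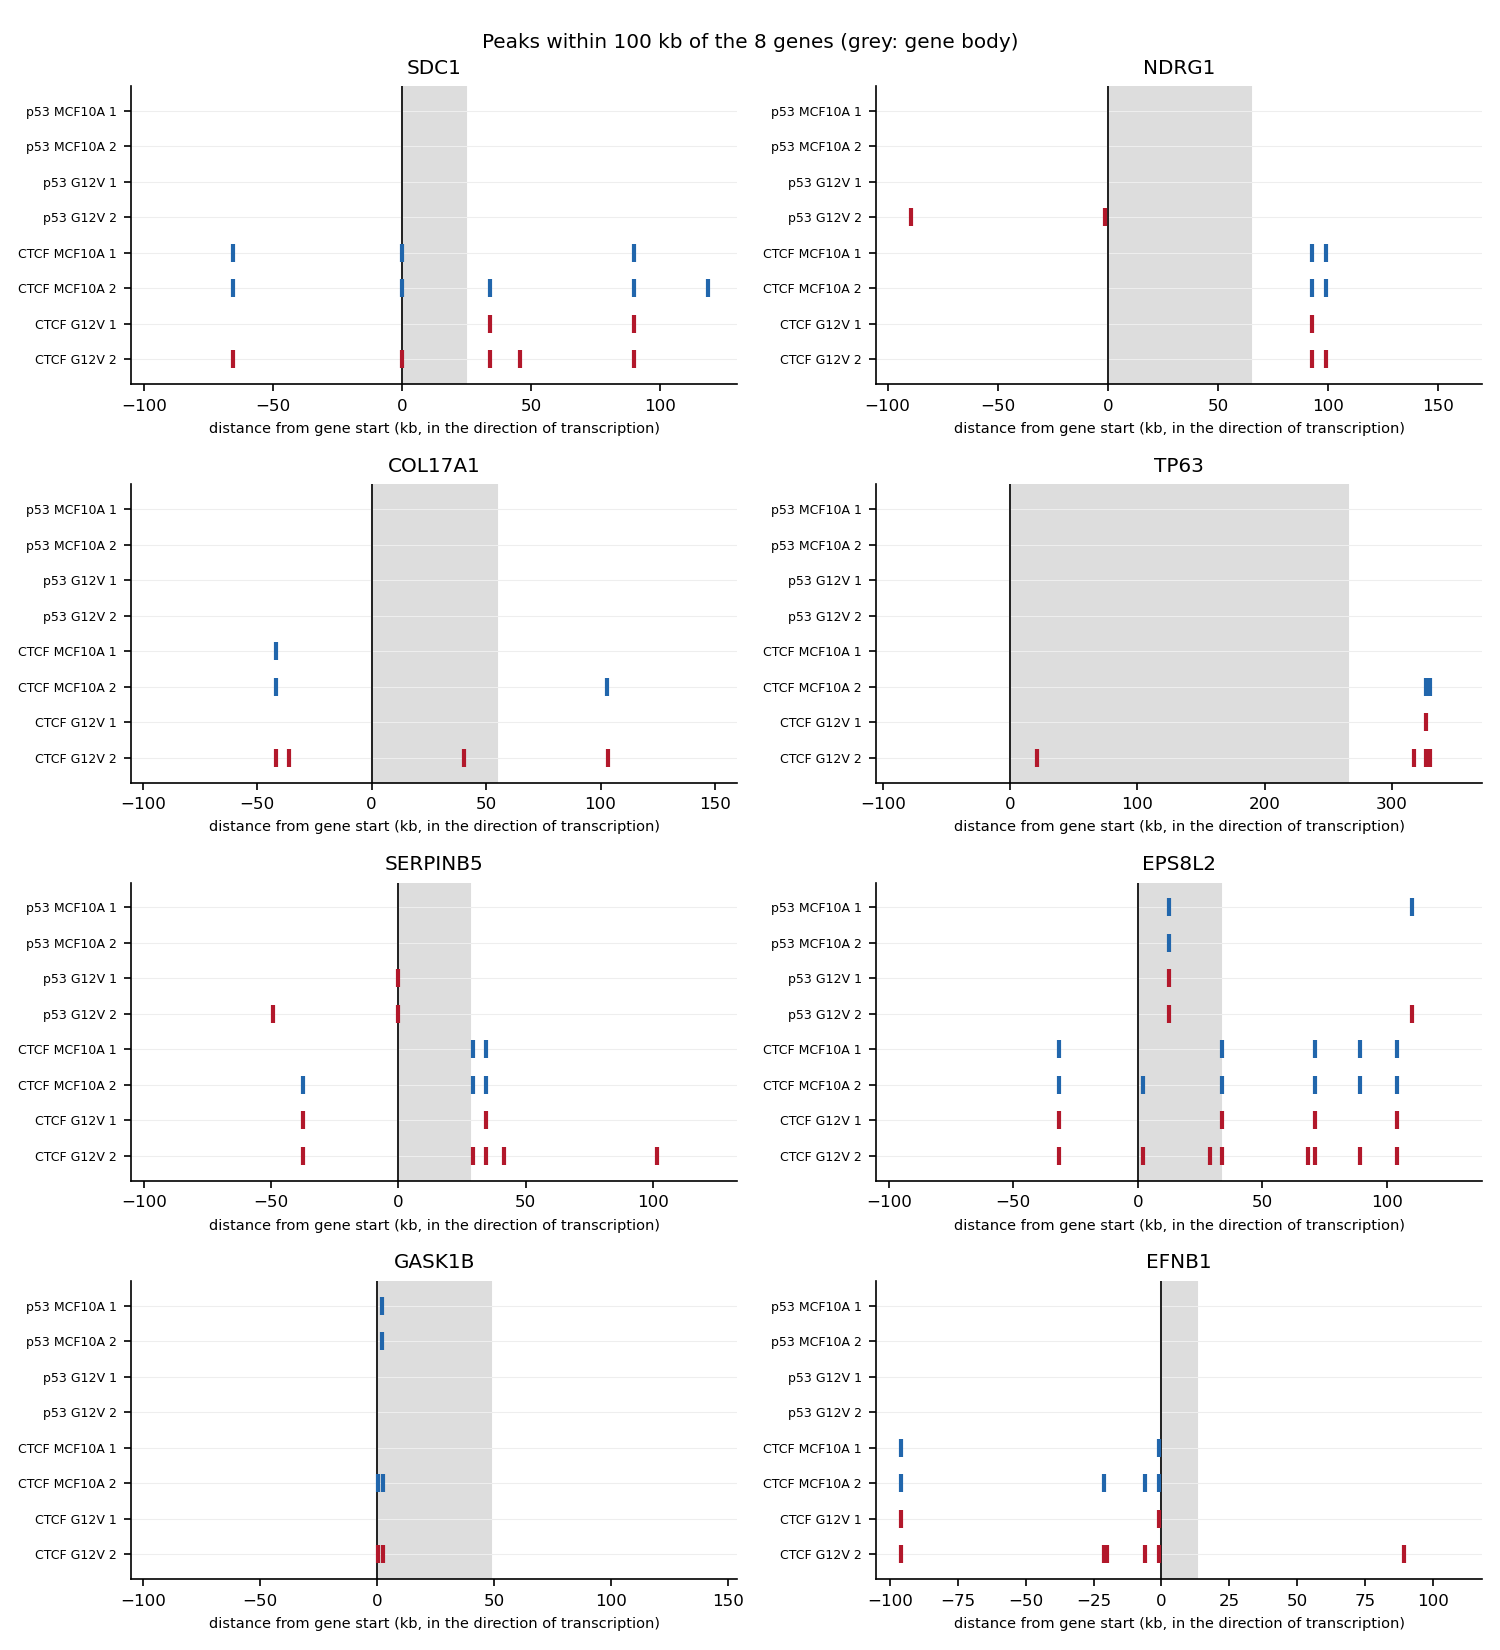
Positions of all 102 peaks around the 8 genes, by distance of the summit from the gene start in kb along the direction of transcription; each row is 1 list, blue for MCF10A and red for G12V, and grey marks the gene body. p53 peaks appear at 4 genes, and most CTCF marks sit in the rows of replicate 2.

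The lists were very unequal in length. The p53 lists held 1718 and 885 peaks in MCF10A and 477 and 2619 in G12V, and the CTCF lists 11346 and 20136 in MCF10A and 12004 and 27678 in G12V. The ChIP depth recovered from the peak values was 9.26 M fragments (M, 1e6) in G12V p53 replicate 1, whose peak names all carry the word old, and 33.2 M in G12V p53 replicate 2. The other 6 libraries lay between 11.4 and 21.4 M. The p53 target gene CDKN1A, whose product arrests the cell cycle, had its start-proximal peak at ranks 13, 27, 11 and 3 of the 4 p53 lists. That of MDM2, also a p53 target gene, stood at ranks 44, 243, 14 and 5, lowest in MCF10A replicate 2 with its 885 peaks. Where a list has no peak at a gene, binding was below what that library could detect and may still be present.

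Overlapping p53 peaks of the 4 lists joined into 2980 sites, of which 7 lay near 4 of the 8 genes: SERPINB5, EPS8L2 and NDRG1 had 2 each and GASK1B had 1. SDC1, COL17A1, TP63 and EFNB1 had no p53 peak within 100 kb in any list. With 250 kb 6 of the genes had a p53 site, and no share over all genes was computed at that distance. The study linked lost regions to genes through shared topological domains and not a fixed distance, so these windows do not test that link. A p53 site lay within 100 kb of 28.8% of the 20098 protein-coding genes of the annotation, with a median of 0 sites per gene. Of the 8 genes, 1 had a site called in both MCF10A lists and neither G12V list (MCF10A-specific), 1 a site of the opposite kind (G12V-specific) and 1 a site in all 4 lists, against 0.692%, 0.741% and 3.95% of all protein-coding genes. The choice of the genes used the p53 motif, so these shares describe them and do not test them.

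SERPINB5, on the plus strand at chromosome 18, 61144191 to 61172318, had the G12V-specific site, at 61143856 to 61144204 over its start. The summits lay 207 bp before the start in G12V replicate 1 and 167 bp before it in G12V replicate 2, in sequence that the annotation gives as intergenic. Fold enrichment over local background was 7.95 in G12V replicate 1, from 15 fragments over the summit, and 13.9 in replicate 2, from 91 fragments. By −log10 q these peaks ranked 333 of 477 and 439 of 2619, or at percentiles 30.4 and 83.3 of their lists, where 100 is the strongest. Thus the peak was in the weaker part of the short list and in the stronger part of the long list, and both MCF10A lists had none.

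To see what a site of this strength would give in MCF10A, the fragment numbers were scaled by the median ratio between libraries at sites with a peak in all 4 lists. The G12V values at the SERPINB5 start corresponded to 30 and 39.6 fragments in MCF10A replicate 1, where the weakest peak in the list had 9, and to 15.5 and 19.9 fragments in replicate 2, where the weakest had 7. All of these lay above the floors of the MCF10A lists, though the local background, which is unknown where no peak was called, also enters the call. The site was picked by its G12V peaks, and a site missing from some lists need not follow ratios taken from sites in all 4. Scaled values, here and below, therefore do not show that binding was absent. No AP-1 motif (TGACTCA or TGAGTCA, both strands) stood within 150 bp around the summit.

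A second p53 site in the SERPINB5 window, at chromosome 18, 61094671 to 61094850, was in G12V replicate 2 only. It lay 49351 bp before SERPINB5 and 5124 bp from the start of VPS4B, an ATPase gene of endosomal sorting. Its fold enrichment was 4.18 from 19 fragments, at percentile 1.53. Scaled to the other p53 libraries this height gave 8.27, 4.15 and 4.04 fragments in MCF10A replicates 1 and 2 and G12V replicate 1, each below the weakest peak of the list concerned (9, 7 and 10). This was the site with an AP-1 motif among the 7, against 6.71% of all p53 sites.

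GASK1B encodes a protein of the Golgi-associated kinase family and lies on the minus strand at chromosome 4, 159045626 to 159094470. Its p53 site, at 159092376 to 159092733, was MCF10A-specific and lay in coding sequence of exon 2, with the summit 1955 bp after the start of the gene record and 1662 bp after that of the main (MANE Select) transcript. Fold enrichment was 11.8 in MCF10A replicate 1, from 25 fragments, and 6.25 in replicate 2, from 12 fragments. The ranks were 613 of 1718 and 747 of 885, at percentiles 64.4 and 15.7, so the peak was among the weaker of the shorter MCF10A list. No G12V list had a peak there.

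Scaled as above, the MCF10A fragments at GASK1B corresponded to 57.5 and 54.9 fragments in G12V replicate 2, where the weakest peak had 14. For G12V replicate 1 they gave 12.5 and 11.6 fragments, just above the weakest peak of 10 in that list. The scaled values thus lay far above the floor of G12V replicate 2 and close to that of G12V replicate 1. Neither distance shows absent binding, since the site was picked by its MCF10A peaks and the ratios came from sites called in every list. The median ratio of G12V replicate 2 to MCF10A replicate 1 was 2.30 at those shared sites. At the second p53 site in the EPS8L2 window, the fragments were 27 and 22 in these libraries, below that ratio. With each list cut to its 477 strongest peaks, no MCF10A-specific site remained near the 8 genes.

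EPS8L2, on the plus strand at chromosome 11, 694438 to 727727, had the site present in all 4 lists, at 706589 to 707251. It lay in intron 1, 760 bp after the start of the main transcript and 12553 bp after that of the gene record, and 127 bp from the start of the record of DEAF1, a transcription factor gene. Fold enrichment was 10.7 and 8.69 in MCF10A replicates 1 and 2 and 6.42 and 21.2 in G12V replicates 1 and 2, from 23, 15, 19 and 75 fragments. The lowest and the highest values both came from G12V cells, so the cell types overlapped. Percentiles within the lists were 58.4, 46.7, 25.6 and 85.1 in the same order.

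Enrichment at the 332 p53 sites with a peak in all 4 lists was compared between cell types with limma on quantile-normalised log2 fold enrichment. The SE and p of limma draw on the spread over all compared sites, not on that of the named site alone. At EPS8L2 the difference, G12V minus MCF10A, was −0.02 on the log2 scale (SE 0.38, adjusted p = 0.989, Benjamini-Hochberg over all 332 sites). Of all these sites 15, or 4.52%, passed an adjusted p of 0.05, and at 50.0% the 2 cell types did not overlap. EPS8L2 belonged to neither group. Its difference changed sign with other settings.

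The second p53 site in the EPS8L2 window, at chromosome 11, 804254 to 804571, lay 109969 bp after the EPS8L2 start, inside PIDD1, the gene of a p53-induced death domain protein, and 5346 bp from the PIDD1 start. It was called in MCF10A replicate 1 with a fold of 7.07 from 22 fragments and in G12V replicate 2 with a fold of 7.31 from 27 fragments. The percentiles were 40.4 and 36.0. Scaled to the other lists, the height of the 2 peaks gave 11.8 and 5.90 fragments for MCF10A replicate 2 and 11 and 5.74 for G12V replicate 1, on either side of their weakest peaks of 7 and 10. Its place in 1 list of each cell type left it out of every class.

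NDRG1, on the minus strand at chromosome 8, 134249418 to 134314265, had p53 peaks in G12V replicate 2 only. The nearer, at 134315440 to 134315627, had its summit 1269 bp before the gene record and 6039 bp before the main transcript, with a fold of 4.58 from 24 fragments at percentile 8.78. The farther, at 134403302 to 134403575, lay 89156 bp before the gene, with a fold of 3.77 from 30 fragments at percentile 5.42. Both were weak peaks of the deepest list. Scaled to MCF10A replicate 1 they gave 10.4 and 13.1 fragments against a weakest peak of 9, and in the other 2 lists 5.11 to 6.55 fragments against 7 and 10.

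**Figure D2:**
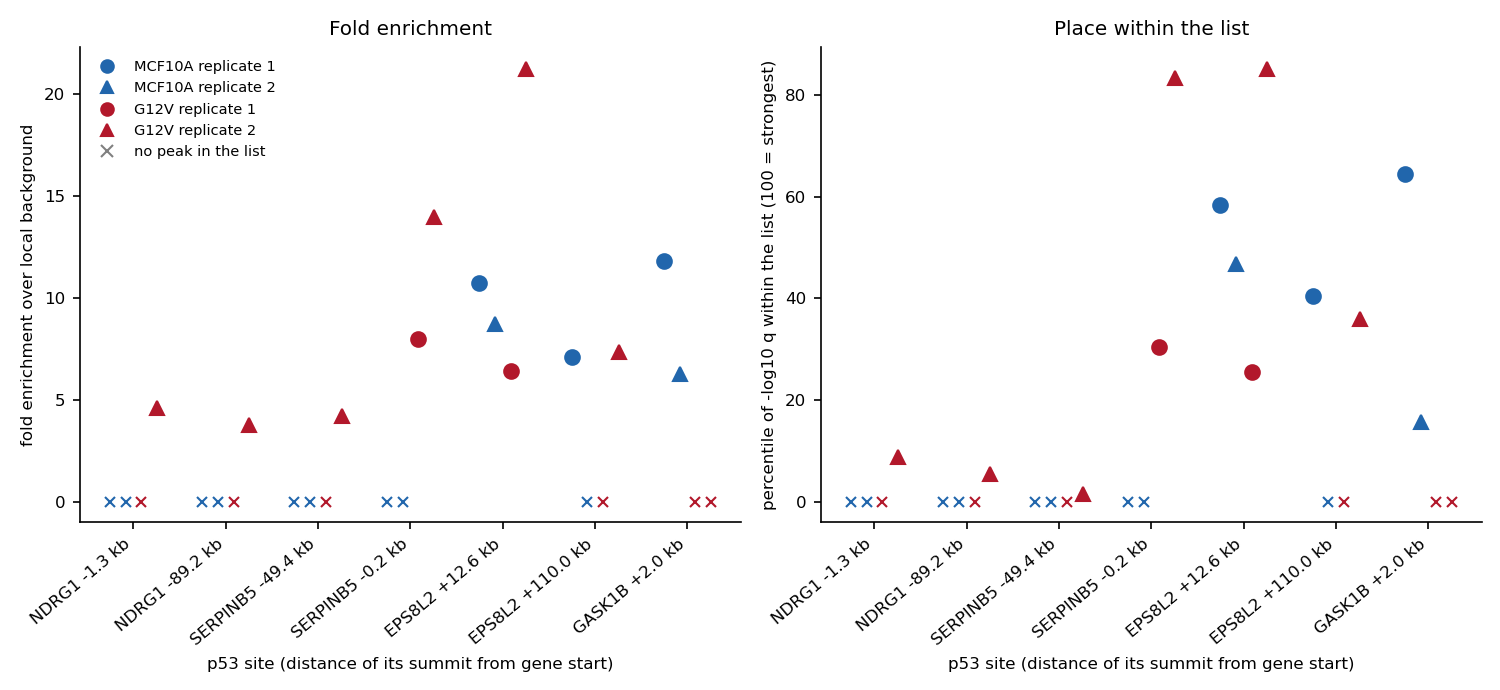
Fold enrichment over local background (left) and percentile of −log10 q within the list (right) of the 7 p53 sites near the 8 genes, with 1 symbol per library and a cross at 0 where the list had no peak. The SERPINB5 start has symbols of the G12V lists alone, GASK1B of the MCF10A lists alone, and EPS8L2 +12.6 kb of all 4.

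By class, 1 of the 7 p53 sites was MCF10A-specific, 1 G12V-specific, 1 in all 4 lists and 4 in neither class, while 2.18%, 1.41% and 11.1% of all 2980 p53 sites fell in the first 3. Sites in 1 list numbered 3 of 7, all from G12V replicate 2, which was alone at 38.5% of all p53 sites. The class depended on library. Without G12V replicate 1 all 4 sites of G12V replicate 2 that no MCF10A list held counted as G12V-specific.

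The p53 motif stood at 2 of the 7 sites, EPS8L2 with 2 mismatches and GASK1B with 3, whereas 70.4% of all p53 sites and 0.671% of windows 2000 bp beside them held it. Over all p53 sites it stood at 57.3% of those in 1 list and 88.9% of those in all 4. Of the 7 sites, 3 were in 1 list, and 0 of these held it. When up to 13 bp were allowed between the decamers, 4 of the 7 held a pair, with spacers of 5 bp at the SERPINB5 start, 8 bp at the EPS8L2 site inside PIDD1, 11 bp at GASK1B and 0 bp at EPS8L2 intron 1, against 80.8% of all p53 sites and 5.60% of the windows beside them. The spaced pairs at the SERPINB5 start and at GASK1B are not the stretches in capitals above, since each uses an unmarked decamer. A lone decamer with at most 1 mismatch was common, in 92.1% of sites and 28.8% of the windows beside them, and was absent from the farther NDRG1 site only. In the p53 sites without a motif these letters were not found in this window, which says nothing of how p53 was held there.

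The genes whose start-proximal p53 site was most like that of a member were found by the Euclidean distance between percentiles over the 4 p53 lists (0 where no peak was called), among 430 protein-coding genes with a p53 site within 5 kb of the start. For SERPINB5 they were POLH, the gene of translesion polymerase eta, and XPO5, an exporter gene that shares its site, both at a distance of 5.26 percentile points, and PANK2 at 8.94 points. For GASK1B they were HNRNPA1L3 (15.8 points), the basal keratin gene KRT17 (15.8 points) and KRTAP19-1 (21.0 points). None of these was MCF10A-specific. KRT17 and KRTAP19-1 had a peak in MCF10A replicate 1 only, and HNRNPA1L3 had one in G12V replicate 2 too, at percentile 0.458. For NDRG1 they were RNF19B at 0 points and CEBPZOS and SULT6B1 at 0.115 points, which reflects a value of 0 in 3 of the 4 lists. Likeness here is over 4 libraries.

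The question whether the 8 genes as a group gained or lost p53 peaks upon H-RAS transformation was put to the share of each list within their windows, which cover 2133 kb or 0.0703% of the chromosomes. Shares for p53 stood at 0.175% and 0.226% in MCF10A (3 of 1718 and 2 of 885 peaks), and at 0.419% and 0.229% in G12V (2 of 477 and 6 of 2619). The means were 0.200% ± 0.0363 and 0.324% ± 0.134 (SD, n = 2), and the exact two-sided permutation p was 0.333, the smallest that 6 assignments allow. CTCF lists had 0.132% and 0.129% of their peaks there in the parental cells and 0.100% and 0.130% in the transformed ones, with means of 0.131% ± 0.00218 and 0.115% ± 0.0213 (SD, n = 2, exact permutation p = 0.667). With 2 libraries on each side no difference in share could pass 0.05.

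**Figure D3:**
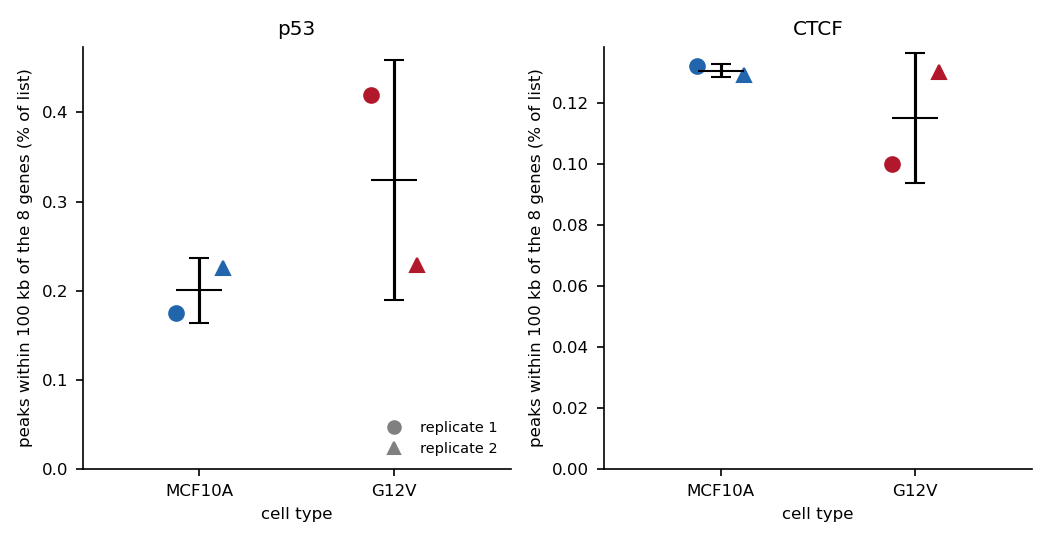
Share of each list (percent of its peaks) within 100 kb of the 8 genes, for p53 and CTCF by cell type; symbols are libraries, bars the mean and whiskers the SD of 2 libraries. p53 shares run from 0.175% to 0.419% and CTCF shares from 0.100% to 0.132%.

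All 8 genes had a CTCF site within 100 kb, as did 93.0% of all protein-coding genes. The 89 CTCF peaks joined into 37 of 29064 sites, from 2 at NDRG1 and GASK1B to 8 at EPS8L2, with a median of 4 over all genes. Per 100 kb of window this came to 0.755 at NDRG1, 0.804 at GASK1B, 0.859 at TP63, 1.57 at COL17A1, 2.19 at SERPINB5, 2.67 at SDC1, 2.82 at EFNB1 and 3.43 at EPS8L2, whose window also holds 16 other protein-coding genes. Only 7 of the 37 summits lay inside the gene itself, and none inside NDRG1, SERPINB5 or EFNB1.

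Of the 37 CTCF sites 9 had a peak in all 4 lists, 9 in 3, 7 in 2 and 12 in 1, and no site was specific to a cell type. Over all CTCF sites 27.5% were in all 4 lists, 0.261% were MCF10A-specific and 3.33% were G12V-specific. Of the 12 sites of 1 list 11 came from G12V replicate 2, the longest list, which was alone at 25.4% of all CTCF sites. The 9 sites of all 4 lists lay at EPS8L2 (4), EFNB1 (2), SDC1, SERPINB5 and NDRG1, so COL17A1, TP63 and GASK1B had none. With lists of equal length 22 sites were left, 3 of them MCF10A-specific and 1 G12V-specific. The shares over all CTCF sites above are for the full lists, and none was computed for the cut ones.

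**Figure D4:**
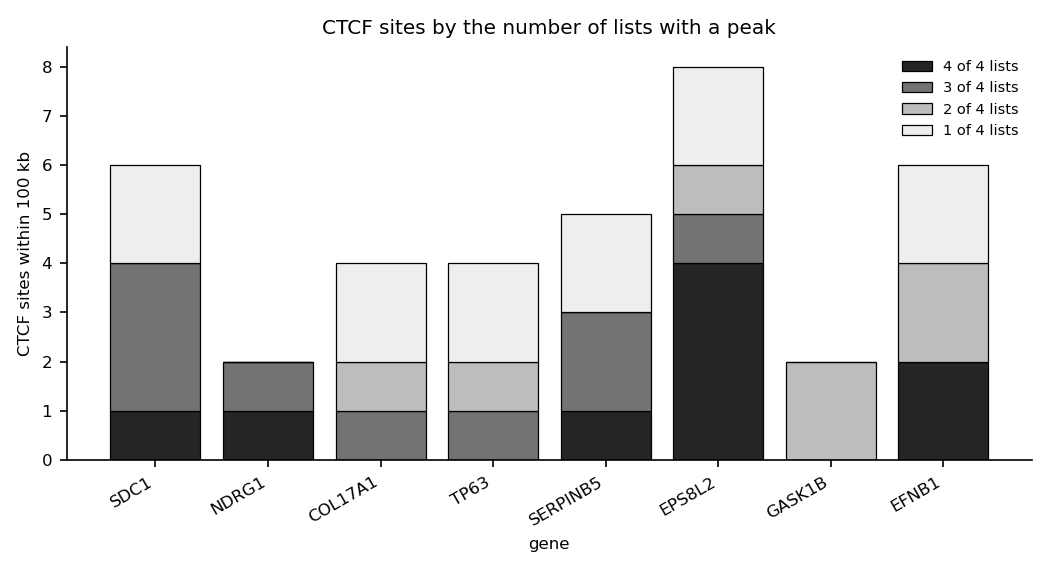
Number of CTCF sites within 100 kb of each gene, stacked by how many of the 4 CTCF lists had a peak there. EPS8L2 has the tallest bar with 8 sites, and sites of all 4 lists (black) appear at 5 genes.

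The DNA of 3 CTCF sites shows how the factor's motif lies at 2 of the sites found in all 4 lists and beside the p53 site of GASK1B, again on the plus strand of GRCh37 with the CTCF motif (at most 1 mismatch, both strands searched) in capitals. They are chrX:68047753-68047902 before EFNB1, chr2:20335516-20335665 beyond the end of SDC1 and chr4:159091755-159091904 in exon 2 of GASK1B.
EFNB1 (all 4 lists): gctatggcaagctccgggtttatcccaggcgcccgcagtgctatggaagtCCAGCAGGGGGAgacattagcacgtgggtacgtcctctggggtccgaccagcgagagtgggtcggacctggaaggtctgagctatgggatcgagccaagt
SDC1 (all 4 lists): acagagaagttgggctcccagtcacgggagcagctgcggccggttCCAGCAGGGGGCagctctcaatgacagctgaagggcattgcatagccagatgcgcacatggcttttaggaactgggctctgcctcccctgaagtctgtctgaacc
GASK1B (MCF10A replicate 2 and G12V replicate 2): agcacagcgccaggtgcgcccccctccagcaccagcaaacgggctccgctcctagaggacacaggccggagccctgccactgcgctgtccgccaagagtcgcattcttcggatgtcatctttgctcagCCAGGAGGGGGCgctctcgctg

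EFNB1, on the plus strand at chromosome X, 68048864 to 68062003, had the CTCF site with the highest median percentile, 82.8, among those nearest a start. The site, at 68047581 to 68048098, had its summit 1036 bp before the start, with folds of 8.97 and 8.76 in the MCF10A lists and of 8.25 and 18.4 in the G12V lists, from 40, 45, 29 and 58 fragments. Percentiles were 83.8, 71.9, 81.9 and 92.3, so the peak stood high in every list. Its window had 5 further CTCF sites, of which the site 95932 bp before the start was also in all 4 lists.

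SDC1, on the minus strand at chromosome 2, 20400558 to 20425194, had a CTCF site over its very start, at 20425028 to 20425415, with the summit 9 bp after the start of the gene record and 294 bp before the main transcript. Folds were 5.61 and 7.86 in MCF10A replicates 1 and 2 and 7.04 in G12V replicate 2, from 17, 32 and 29 fragments, and G12V replicate 1 had no peak. The percentiles of 14.3, 51.5 and 34.5 put it in the middle or lower part of the lists, and no CTCF motif stood there.

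GASK1B had a CTCF site 560 bp after its start, at chromosome 4, 159093718 to 159094027, in intron 1, with folds of 9.94 in MCF10A replicate 2 and 6.57 in G12V replicate 2 from 19 and 27 fragments. Its other CTCF site, at 159091732 to 159092060, is printed above and had folds of 8.49 and 6.12 in the same 2 lists. The p53 site of GASK1B lay between them, 685 bp from the nearer CTCF summit and 1395 bp from the other. Over all p53 sites the median distance to the nearest CTCF summit was 28582 bp, and 8.49% had one within 2000 bp. For the 7 p53 sites near the 8 genes the median was 11879 bp, and 1 had one within 2000 bp. Neither replicate 1 list had a CTCF peak at GASK1B.

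EPS8L2 had its start-proximal CTCF site 2147 bp after the start of the gene record, at chromosome 11, 696400 to 696721, in an intron of TMEM80, a gene that overlaps it. It was in MCF10A replicate 2 with a fold of 6.43 and in G12V replicate 2 with a fold of 4.13, from 16 and 21 fragments, at percentiles 15.4 and 4.85. The main transcript starts 9646 bp beyond this weak site. Just past the end of the gene, at 728026 to 728414, lay one of the strongest sites of the set, where MCF10A gave folds of 10.8 and 15.6 and G12V folds of 7.28 and 15.3.

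SERPINB5 had its nearest CTCF site 29378 bp after the start, beyond the 3′ end of the gene, at chromosome 18, 61173350 to 61173781. It was in both MCF10A lists and in G12V replicate 2, from 16, 26 and 37 fragments, at percentiles 9.50, 62.4 and 51.5. The promoter that carried the G12V-specific p53 site thus had no CTCF site on it in any list, and its p53 summit lay 29545 bp from the nearest CTCF summit.

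COL17A1, on the minus strand at chromosome 10, 105791044 to 105845638, had its nearest CTCF site 35916 bp before the start, at 105881446 to 105881699, 262 bp from the start of SFR1, a recombination factor gene. It was in G12V replicate 2 only, with a fold of 7.27 from 24 fragments. The site in intron 33 of COL17A1, 40253 bp after the start, was likewise in that list alone, with a fold of 7.51 from 39 fragments. G12V replicate 1 had no CTCF peak in the COL17A1 window.

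TP63, on the plus strand at chromosome 3, 189349178 to 189615065, is the longest of the genes and had 1 CTCF site in its body, in intron 1, 20827 bp after the start at 189369850 to 189370107. It was in G12V replicate 2 only, with a fold of 5.15 from 13 fragments at percentile 4.61. The other 3 CTCF sites lay past the gene, 317343 to 330327 bp from its start, 2 of them in the neighbouring P3H2, a prolyl hydroxylase gene. The site at 189676167 to 189676613 stood at percentile 16.4 in MCF10A replicate 2 and at 80.1 and 65.9 in G12V, from 18, 24 and 31 fragments. Its neighbour at 189679313 to 189679739 stood at percentile 81.6 in MCF10A replicate 2 and 77.8 in G12V replicate 2, from 32 and 45 fragments, and was in neither other list. MCF10A replicate 1 had no CTCF peak in the whole window. Thus TP63 had neither a p53 site nor a CTCF site at its start.

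NDRG1 had both of its CTCF sites beyond its 3′ end, inside CCN4, the gene of a secreted matricellular protein. The nearer, 92588 bp from the NDRG1 start at chromosome 8, 134221464 to 134221869, was in all 4 lists where MCF10A gave folds of 4.48 and 10.4 and G12V folds of 3.38 and 12.3. Replicate 2 exceeded replicate 1 in both cell types, from 42 against 33 and 65 against 16 fragments.

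Enrichment at the 9 CTCF sites of all 4 lists was compared as for p53, in a limma fit over all 8006 such sites. None of the 9 passed, and 0 of the 8006 (0.00%) did by limma, although 421 had an unadjusted p under 0.05 and the fit to −log10 p in place of fold also called 0, with 466 under 0.05. Among the 9 the largest rise was at the SDC1 site 89603 bp from the start, at 0.77 on the log2 scale (SE 0.45, adjusted p = 0.953, limma). The largest fall was at the site 103970 bp from the EPS8L2 start, at −0.55 (SE 0.46, adjusted p = 0.980, limma). That site lay inside the gene record of PANO1, 127 bp from the start of SLC25A22. The cell types did not overlap at 3 of the 9, against 33.8% of all 8006. These were the same SDC1 site (normalised log2 values 2.79 and 2.51 in MCF10A, 3.19 and 3.65 in G12V), the SERPINB5 site 34508 bp from the start (2.63 and 2.28, 2.82 and 3.09) and the EPS8L2 site 33747 bp from the start (3.86 and 3.73, 3.23 and 3.35).

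**Figure D5:**
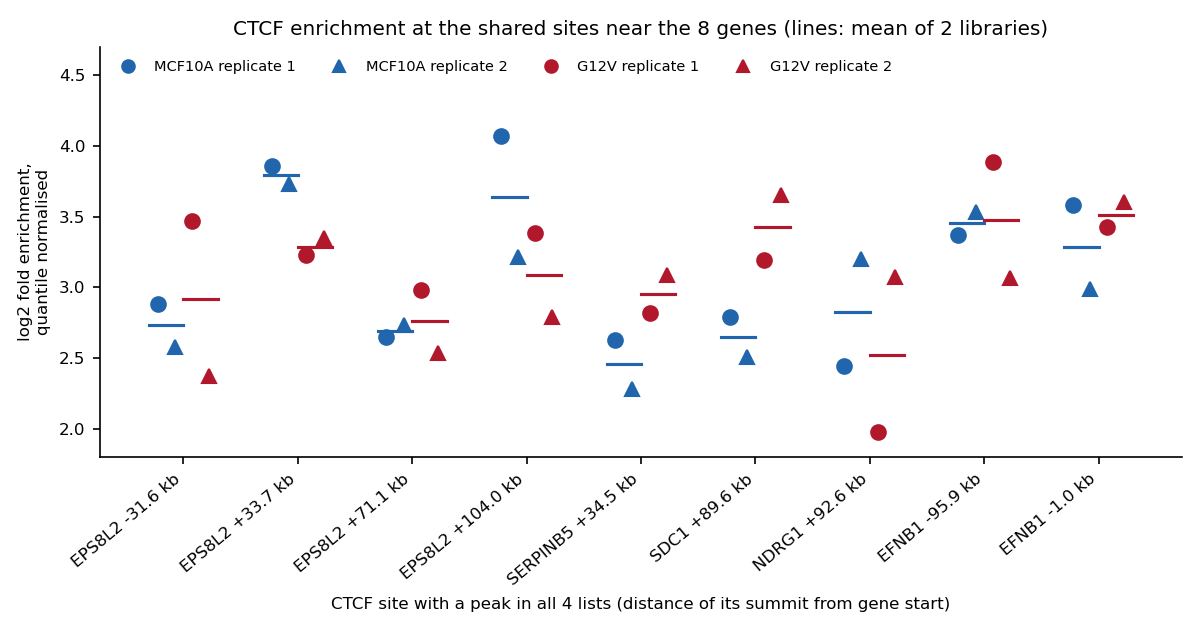
Quantile-normalised log2 fold enrichment of CTCF at the 9 sites with a peak in all 4 lists, with 1 symbol per library and a line at the mean of each cell type. The cell types separate at SDC1 +89.6 kb, SERPINB5 +34.5 kb and EPS8L2 +33.7 kb, and overlap at the other 6 sites.

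The CTCF motif stood at 23 of the 37 sites, 7 of the 9 of all 4 lists and 7 of the 12 of 1 list, against 52.1% of all CTCF sites and 1.22% of windows 2000 bp beside them. Of the windows beside the 37 sites themselves, 5 of 74 held it. Over all CTCF sites it stood at 67.5% of those in all 4 lists and 35.9% of those in 1. On the reference, 14 of the motifs read on the plus strand and 9 on the minus strand. Around SDC1 the 3 motifs on the low-coordinate side of the gene were on the plus strand and that on the high-coordinate side, in an intron of PUM2, was on the minus strand, so they faced each other across the gene. Of the plus-strand sites, that starting at 20306646 was in MCF10A replicate 2 only and that at 20379382 in G12V replicate 2 only. G12V replicate 1 had no peak at the PUM2 site. Around EPS8L2 those before and inside the gene were on the plus strand and the 3 beyond it on the minus strand, though the sites starting at 723234 and 762474 were in G12V replicate 2 only.

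Relatives of the 8 genes were counted in the same way. Of 20 family members (syndecans, NDRG genes, TP73, clade B serpins, EPS8 genes, GASK1A and ephrin-B genes) 9 had a p53 site within 100 kb, and of 10 genes of hemidesmosomes, laminin-332 and Eph receptors 6 had one, against 28.8% of all protein-coding genes. These genes are not independent, since SERPINB3, SERPINB4, SERPINB7 and SERPINB13 share 1 peak of MCF10A replicate 1, at rank 1118. EPS8 had the only site in all 4 lists, 54617 bp from its start at ranks 637, 879, 111 and 376. SERPINB12, a neighbour of SERPINB5, had the only specific site, which is the G12V-specific site of the SERPINB5 start seen from 65578 bp away. TP73, a relative of TP63, had a site in MCF10A replicate 1 alone. A CTCF site lay within 100 kb of 19 of the 20 and of all 10, against 93.0% of all protein-coding genes.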

How the data were processed

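Per the labels, reads were aligned to hg19 with Bowtie, and the study called peaks with MACS against input. Each deposited list covers 1 library and gives fold enrichment as a ratio, −log10 p, −log10 q and a score (the −log10 q times 10, truncated) per peak, all made by the authors. The lists give no read totals. Fragments over each summit, background and depth were solved from fold and −log10 p (up to 200) for a genome of 2.7 Gb. Pairs within the file's rounding that fell on whole fragments (tolerance 0.05) were found for 100% of peaks solved.

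The 8 genes and all lists of genes were chosen with earlier results of these data known. Genes came from GENCODE 44 on GRCh37, which has the chromosomes of hg19 (0 peaks ended past a chromosome). Peaks overlapping by at least 1 bp were joined into sites, and values at the strongest peak of a list represent it. Motifs were searched over 150 bp centred on the summit of a site's best-ranked peak. The rank of a peak is 1 plus the number of stronger peaks in its list. Named were all p53 sites of the windows, the CTCF site nearest each start and, of the sites in all 4 lists, the largest change each way. Further CTCF sites at TP63, COL17A1, EPS8L2 and GASK1B were named after their values were seen. limma 3.58.1 in R 4.3.3 was run on log2 fold at sites of all 4 lists, and scripts in Python 3.11.15 with pysam 0.24.0 did the rest. Functions and the fit were tested on simulated data. Input libraries were not analysed here. A relative fixed in the list of related genes is not reported here.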

Additional observations from a re-analysis of the deposited data

How the results depend on the processing

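With 2 libraries per group and lists of unequal length, absence from a list limits every class, and fold enrichment has no floor below the caller's threshold. Windows of 50 or 250 kb, or 100 kb around the gene start, a −log10 q of at least 5 and joining by summits within 150 bp changed no p53 class, though 6 genes had a p53 site with 250 kb, 3 at that −log10 q and 3 without G12V replicate 2, whose list holds the NDRG1 peaks. Lists of equal length left 2 genes with a p53 site and 0 MCF10A-specific and 0 shared p53 sites. They gave 1 G12V-specific, 3 MCF10A-specific and 3 shared CTCF sites. With 250 kb there were 1 G12V-specific and 19 shared CTCF sites. Leaving out each library in turn gave 1 to 4 G12V-specific p53 sites, 0 to 11 G12V-specific, 0 to 6 MCF10A-specific and 9 to 15 shared CTCF sites. The 4 came without G12V replicate 1, as did the 11 and 15, and the 6 came without G12V replicate 2. No share over all genes or sites was computed under these settings. Their counts thus cannot be set against the shares of the main setting. With 1 mismatch fewer the motif stood at 1 p53 and 5 CTCF sites, and with spaced decamers (chosen after seeing the data) at 4 p53 sites. By number of peaks, CTCF was 3.5 higher in G12V (exact permutation p = 1), against a lower share. The share of p53 peaks was 0.124 percentage points higher in G12V, 0.314 with lists of equal length, 0.058 at −log10 q of at least 5 and 0.029 to 0.219 leaving out each library (lowest without G12V replicate 1, highest without G12V replicate 2). That of CTCF differed by −0.0156 points, and by −0.0307 to −0.000596 without those same libraries.

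The number of shared p53 sites called by limma was 15, 0 without quantile normalisation, 2 on −log10 p, 7 at −log10 q of at least 5 and 0 to 15 leaving out each library (0 without MCF10A replicate 2, G12V replicate 1 or G12V replicate 2). At EPS8L2 the p53 log2 difference turned to 0.27 without normalisation and 0.23 on −log10 p, and ran from −0.26 to 0.29 leaving out each library. Left out likewise, CTCF differences crossed 0 at EPS8L2 (−0.37 to 0.71 at 31608 bp before the start, −0.17 to 0.28 at 71070 bp after it, where −log10 p gave −0.062), at NDRG1 (−0.79 to 0.26) and at EFNB1 (−0.41 to 0.43 at 95932 bp and −0.067 to 0.55 at 1036 bp before the start). The largest CTCF fall, 103970 bp from the EPS8L2 start and 127 bp from that of SLC25A22, ran from −0.96 to −0.13. Without MCF10A replicate 1 or G12V replicate 2 the largest fall was at NDRG1 (−0.72 and −0.79). Without G12V replicate 2 the largest rise was at EPS8L2 (0.71). None of these passed the threshold, and the cause was not tested. Replicates share only a number. Deviations of same-numbered libraries correlated at 0.06 for p53 and 0.03 for CTCF, and the replicate block gave 19 p53 calls, 0 CTCF calls and p = 0.5 and p = 1 for the shares (exact permutation, smallest possible 0.5).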
